A study of Mus musculus with 6 samples.

Results

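The LIM homeobox genes encode transcription factors that join a DNA-binding homeodomain to a pair of LIM zinc-finger domains. The set described here holds 10 of them, Lhx1, Lhx2, Lhx3, Lhx4, Lhx5, Lhx6, Lhx8, Lhx9, Lmx1a and Lmx1b, taken by gene symbol from 24453 symbols in each count file. All 10 symbols had a row, 7 had at least 1 count in some library, and 5 (Lhx1, Lhx2, Lhx6, Lmx1a and Lmx1b) passed the filter on low counts and were tested. RNA sequencing was done on epidermal cells of newborn mouse back skin (postnatal day 0), sorted for EpCAM, Sca1 and high α6-integrin, markers of the interfollicular epidermis and its progenitors. The 3 control libraries carry the genotype label Control. The other 3 carry the label Ring1a-/- Ring1b-/-, a double knockout of both ligases that give Polycomb repressive complex 1 (PRC1) its activity on histone H2A. The alleles of the controls, the strain and any Cre driver are not given in the sources used here, and no source says whether each library is another animal, so the p-values rest on library-to-library spread, part of which may be technical. The control-labelled replicates 1 to 3 are called C1 to C3 and the knockout-labelled ones K1 to K3.

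LIM homeodomain proteins specify cell identity in many embryonic tissues, and they act through the LIM-domain-binding protein Ldb1, which dimerizes and can bridge 2 of them. LIM-only proteins compete with them for Ldb1. PRC1, with Polycomb repressive complex 2, keeps many such developmental genes silent in tissues that do not use them, and the promoters it occupies are often rich in CpG dinucleotides. In skin, Lhx2 is known from the hair follicle, where it marks placodes and stem cells. Lmx1b is the dorsal patterning factor of the limb and a kidney podocyte factor, and Lmx1a is known from the roof plate and midbrain dopaminergic neurons.

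The libraries held 18951665 to 31187270 counts, at which 3 counts, the number a library with 0 could still hold, correspond to 0.0975 to 0.154 CPM, the unit of depth-scaled counts used here (TMM). Ring1, the gene of Ring1a, had 30.9, 17.1 and 3.90 CPM in C1 to C3 and 1.66, 5.20 and 14.2 CPM in K1 to K3, so K3 stood above C3, and a library's group is its label throughout. Rnf2, the gene of Ring1b, had 43.2 to 63.2 CPM in the control-labelled and 55.4 to 64.1 CPM in the knockout-labelled libraries, and its counts can include reads outside a deleted part, so they check no label. All 10 interfollicular epidermis markers were counted in every library, at a summed 32735 to 49327 CPM in the control-labelled and 33473 to 35805 CPM in the knockout-labelled libraries. Of these markers Trp63, a factor of basal epidermal identity, fell (log2 fold change -0.79, edgeR adjusted p = 0.0176) and the other 9 did not pass, while the sort marker Epcam was higher in every knockout-labelled library than in any control (log2 fold change 0.95, edgeR adjusted p = 0.0598). Ly6a, the gene of Sca1, had 15.1, 48.8 and 52.1 CPM in C1 to C3 and 49.1, 63.5 and 56.6 CPM in K1 to K3. Itga6, the gene of α6-integrin, had 857, 1412 and 1457 CPM in C1 to C3 and 1092, 1020 and 1149 CPM in K1 to K3. C1 was thus the lowest library for both. The first principal component of all tested genes, with 57.8% of the variance, placed each library on the side of its label (-65.9 to -48.0 against 43.8 to 73.3), C3 and K3 included. On the second principal component, with 19.0% of the variance, C1 and K1 stood apart from the other 4 libraries. For the LIM homeobox genes and the called genes of the other lists, values without replicate 3 or replicate 1 of both groups are given where they change a call. In bulk RNA, fewer cells that express a gene and less RNA per cell cannot be told apart.

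The upstream sequences of 4 members are shown because these genes had a higher CPM in every knockout-labelled library than in any control-labelled one, while these windows differ in CpG content. Each is the 250 bases before the RefSeq start site (GRCm38.p6), read 5′ to 3′ on the gene's strand, with CpG dinucleotides in capitals. The Lmx1a and Lhx9 windows lie inside the gene spans given below, which come from GENCODE. These windows are therefore upstream of the RefSeq start only. Lmx1a is at chr1:167689308-167689557 (plus strand), Lhx9 at chr1:138842445-138842694 (minus strand), Lmx1b at chr2:33641099-33641348 (minus strand), and Lhx2, at the upstream one of its 2 start sites, at chr2:38339031-38339280 (plus strand).
Lmx1a: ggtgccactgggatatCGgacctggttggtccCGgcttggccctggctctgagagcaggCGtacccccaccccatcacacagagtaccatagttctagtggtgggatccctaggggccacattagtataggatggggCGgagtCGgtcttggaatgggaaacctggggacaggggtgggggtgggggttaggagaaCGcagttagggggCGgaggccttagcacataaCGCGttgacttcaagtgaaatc
Lhx9: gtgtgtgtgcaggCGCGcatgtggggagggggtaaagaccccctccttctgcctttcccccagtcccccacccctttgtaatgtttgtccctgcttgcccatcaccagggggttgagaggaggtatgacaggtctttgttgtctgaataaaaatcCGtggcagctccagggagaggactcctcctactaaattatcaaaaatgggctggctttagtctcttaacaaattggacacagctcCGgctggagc
Lmx1b: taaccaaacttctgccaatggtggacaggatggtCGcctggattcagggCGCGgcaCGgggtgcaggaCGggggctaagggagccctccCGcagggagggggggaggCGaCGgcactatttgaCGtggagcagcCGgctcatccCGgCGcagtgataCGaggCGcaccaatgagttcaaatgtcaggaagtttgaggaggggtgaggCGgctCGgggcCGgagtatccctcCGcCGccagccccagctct
Lhx2: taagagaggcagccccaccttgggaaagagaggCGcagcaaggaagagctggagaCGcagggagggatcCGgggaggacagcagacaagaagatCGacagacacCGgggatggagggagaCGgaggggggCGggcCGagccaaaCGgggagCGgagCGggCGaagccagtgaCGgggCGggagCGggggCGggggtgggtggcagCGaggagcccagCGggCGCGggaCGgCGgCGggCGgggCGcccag
These windows held 9 CpG dinucleotides in Lmx1a, 4 in Lhx9, 19 in Lmx1b and 25 in Lhx2. Over the 32851 promoter windows of the same length in the RefSeq table the median was 6, with quartiles of 2 and 16. Of the members, 9 matched the table with 13 start sites, and 11 of these sites had more CpG than the median. Among members with few or no counts, Lhx8 had 4 CpG and Lhx4 had 14, and the start sites of Lhx3 had 11 and 22. Lhx1, also low in counts, had 26, the most of the 13 windows. The motif TAATTA, a core bound by many homeodomains and the same on both strands, was in none of the 13 windows and in 4.84% of all windows, which says only that these letters are absent from these stretches.

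**Figure D1:**
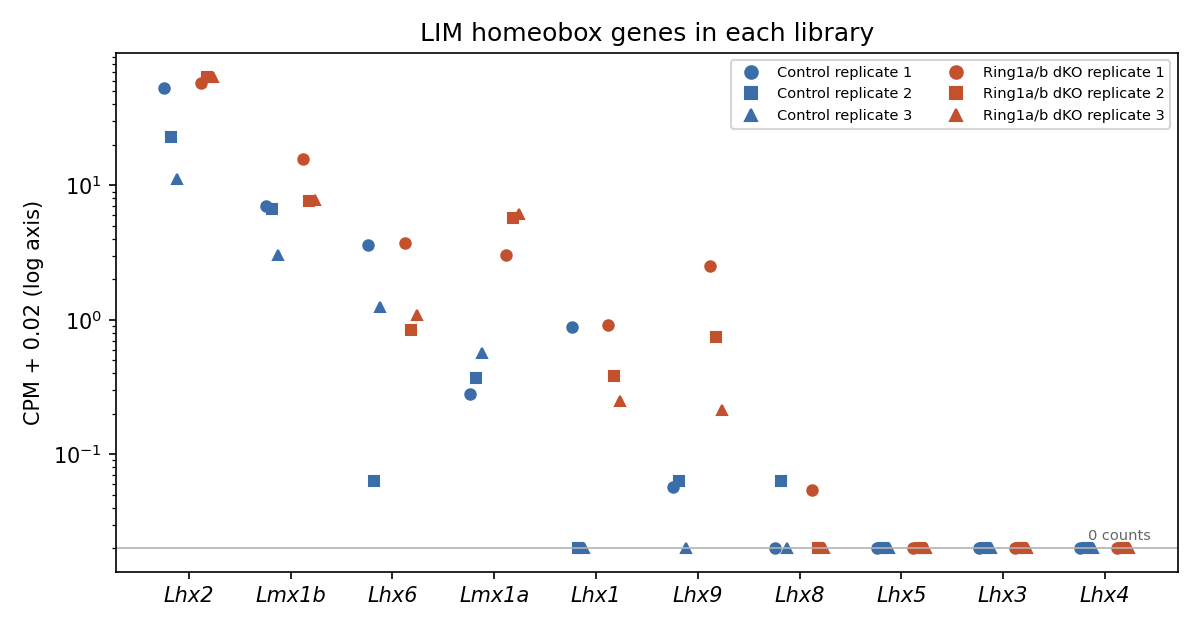
Level of each LIM homeobox gene in each of the 6 libraries, in CPM plus 0.02 on a log axis, with genes ordered by their control mean (blue, control-labelled; orange, knockout-labelled; the symbol gives the replicate). Lmx1a lay at 0.263 to 0.547 CPM in the control-labelled and 3.01 to 6.11 CPM in the knockout-labelled libraries, while Lhx3, Lhx4 and Lhx5 lay on the line of 0 counts in all 6.

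Lmx1a was the 1 member of the 5 tested that changed, and it rose. Lmx1a (ENSMUSG00000026686.14, chromosome 1, 167689237 to 167848741, plus strand, GRCm38) had 7, 8 and 16 counts in C1 to C3 and 87, 110 and 188 counts in K1 to K3. In CPM these were 0.263, 0.350 and 0.547 against 3.01, 5.66 and 6.11. The lowest knockout-labelled library was thus well above the highest control-labelled one, and the means rose 12.7-fold, from 0.387 ± 0.146 to 4.93 ± 1.67 CPM (SD, n = 3 libraries per group). The log2 fold change was 3.65 ± 0.59 (SE; edgeR adjusted p = 0.00652). Over all 14890 tested genes, 10.2% were called in either direction, 7.17% higher and 2.98% lower, beside 1 of 5 tested members called higher and 0 lower. Among the controls only C3 reached the minimum count of 10 for Lmx1a. The gene thus passed the count filter through the knockout-labelled libraries, and its call higher is no test of direction. At an unadjusted p under 0.05 edgeR gave 2 members higher and 0 lower, and DESeq2 and limma-voom also called Lmx1a alone. The call was kept when any 1 library was left out (log2 fold change 3.43 to 3.99). With replicates 1 and 2 alone, which leaves out the pair with Ring1 against the labels, the log2 fold change was 3.80 and did not pass (edgeR adjusted p = 0.0755), and with replicates 2 and 3 alone it was 3.69 (edgeR adjusted p = 0.00348).

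Lmx1b, the paralog of Lmx1a, was already present in the control-labelled epidermis. Lmx1b (ENSMUSG00000038765.13, chromosome 2, 33560965 to 33640511, minus strand) measured 6.98, 6.64 and 3.01 CPM in C1 to C3 and 15.8, 7.62 and 7.77 CPM in K1 to K3. The groups did not overlap, but K1 alone was far above the controls while K2 and K3 exceeded C1 by less than the control libraries differed among themselves. The log2 fold change was 0.91 ± 0.45 (SE, n = 3 per group), which missed the threshold (edgeR adjusted p = 0.261), and without K1 it was 0.48. It did not pass with replicates 1 and 2 alone (0.77, edgeR adjusted p = 0.538) or with replicates 2 and 3 alone (0.68, 0.339). Per kilobase of exon, Lmx1a stood at 5.41, 7.56 and 26.1% of Lmx1b in C1 to C3 and at 27.5, 107 and 113% in K1 to K3. The pair was thus near equal in K2 and K3, whereas in K1 the share was close to that of C3.

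The transcript next to Lmx1b rose. C130021I20Rik, an antisense RNA in the annotation (chromosome 2, 33641193 to 33646354, plus strand), points away from Lmx1b, and its annotated start lies inside the Lmx1b window printed above. It had 9.53, 22.1 and 14.0 CPM in C1 to C3 and 35.2, 66.3 and 63.1 CPM in K1 to K3. All knockout-labelled libraries exceeded all control-labelled ones, and the log2 fold change was 1.85 ± 0.36 (SE, edgeR adjusted p = 0.0143). The call was lost without C3 (edgeR adjusted p = 0.0629), without K2 (0.0558) and with replicates 1 and 2 alone (0.143), where the log2 fold change was 1.79, 1.70 and 1.68. K1, the library with the most Lmx1b, had the least C130021I20Rik of its group. Counts of C130021I20Rik were 1.37, 3.32 and 4.66 times those of Lmx1b in C1 to C3 and 2.24, 8.70 and 8.12 times in K1 to K3. In GENCODE, which gave the gene positions, 681 bases separate the 2 genes and they share no stretch. Counted from the RefSeq start of Lmx1b, at the end of the printed window, the gap is under 250 bases. The annotation and strand of the authors' counting are not stated.

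**Figure D2:**
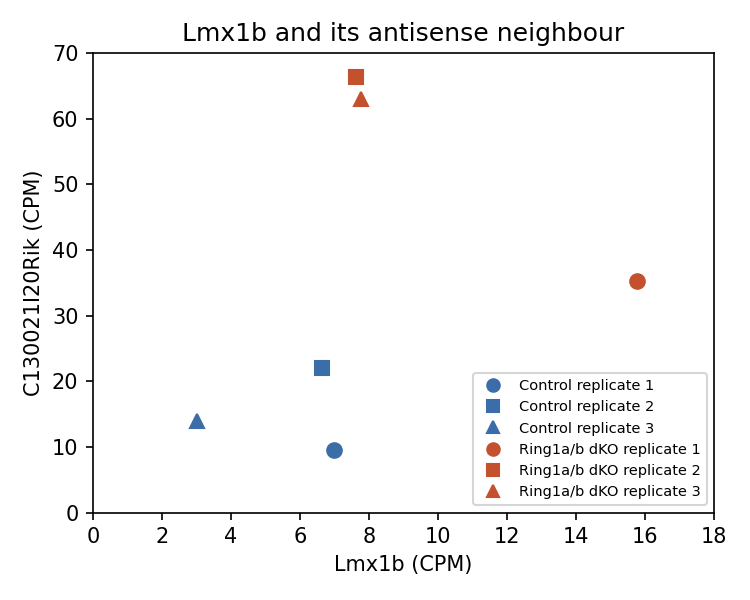
CPM of Lmx1b (horizontal axis) against its antisense neighbour C130021I20Rik (vertical axis), 1 point per library. K2 and K3 lie high on the vertical axis (66.3 and 63.1 CPM) with Lmx1b at 7.62 and 7.77 CPM, near C1 and C2, and K1 lies apart at 15.8 CPM of Lmx1b.

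C130021I20Rik was the 1 called gene among the annotated neighbours. The nearest gene on each side of the 10 members gave 20 genes, of which 17 had a count and 13 were tested, and their log2 fold changes had a median of 0.10, against 0.00 over all tested genes. Nek6, beyond Lhx2, and Qsox1, beyond Lhx4, also lay above the controls in every knockout-labelled library. They did not pass in edgeR (log2 fold changes of 1.36 and 1.21, edgeR adjusted p = 0.0950 and 0.0721) and were called by DESeq2 (adjusted p = 0.0181 and 0.0144). In edgeR Nek6 passed without K3 (0.0348), with a log2 fold change that was 0.63 without K1, and Qsox1 passed with replicates 2 and 3 alone (0.0351). Of all tested genes 32.4% had groups that did not overlap, 17.6% with the knockout-labelled libraries above and 14.8% below. Lhx1os, the divergent transcript of Lhx1, had 1 count in the control-labelled and 10 in the knockout-labelled libraries and was not tested.

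Lhx2 was the most abundant member in every library, and its level differed more among the controls than among the knockouts. Lhx2 (ENSMUSG00000000247.11, chromosome 2, 38339281 to 38369733, plus strand) had 53.2, 22.9 and 11.2 CPM in C1 to C3 and 58.2, 64.5 and 64.4 CPM in K1 to K3. The groups did not overlap, yet C1 was close to K1. The means were 29.1 ± 21.7 and 62.4 ± 3.60 CPM (SD, n = 3), and the log2 fold change of 1.10 ± 0.47 (SE) did not pass (edgeR adjusted p = 0.194). Without C1 it was 1.87 and passed (edgeR adjusted p = 0.0181), as it did at 1.92 with replicates 2 and 3 alone (0.00471). Without replicate 3 of both groups it was 0.68 (edgeR adjusted p = 0.501), and without C3 alone it was 0.71 (0.335). Among the fits with libraries left out, Lhx2 thus passed only where C1 was absent, and its fold change depended on C3 too. Of the 5 tested members, 3 (Lhx2, Lmx1a and Lmx1b) had all knockout-labelled libraries above all controls and 0 had them below, where all tested genes gave 17.6% above and 14.8% below. Of these 3, Lmx1a passed the count filter through the knockout-labelled libraries.

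Of 12 hair follicle markers 8 were highest among the controls in C1, the control library with the most Lhx2, and 4, the keratins Krt17, Krt25, Krt71 and Krt35, were not. Sox9, a factor of the follicle's stem cells, had 307, 85.9 and 89.0 CPM in C1 to C3 and 460.0, 105 and 117 CPM in K1 to K3. Lgr5, a stem cell receptor, had 17.1 CPM in C1 and 0.877 to 3.29 CPM in the other 5 libraries, and Shh, the ligand of the placode, had 14.5 CPM in C1 and 0.257 to 3.25 CPM elsewhere. Krt17 had 362 CPM in C1, its lowest level in any library. All 12 markers were counted, and they summed to 1603, 1183 and 1346 CPM in C1 to C3 and to 2440, 1618 and 1610 CPM in K1 to K3. Of the 11 tested markers 3 fell and 0 rose in edgeR, beside 2.98% lower and 7.17% higher over all tested genes, while DESeq2 and limma-voom each called 1 higher. The 3 were Lef1 (log2 fold change -1.12, edgeR adjusted p = 0.0145) and the inner root sheath keratins Krt25 (0 counts in all knockout-labelled libraries) and Krt71. Lgr6 and Krt17 were higher in every knockout-labelled library than in any control, as were 17.6% of all tested genes. They did not pass (edgeR adjusted p = 0.0510 and 0.118). At an unadjusted p under 0.05 in edgeR, 3 were higher and 3 lower. The part of follicle cells in the Lhx2 levels was not tested.

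Lhx6, a factor of cortical interneurons and of tooth and jaw mesenchyme, followed the replicate number more than the label. Lhx6 (ENSMUSG00000026890.19, chromosome 2, 36081953 to 36105408, minus strand) measured 3.60, 0.0437 and 1.23 CPM in C1 to C3 and 3.70, 0.824 and 1.07 CPM in K1 to K3. C1 and K1 were the highest of their groups and nearly equal, and C2, with 1 count, was the lowest of all. The log2 fold change of 0.20 ± 1.13 (SE) did not pass (edgeR adjusted p = 0.940) and turned to -0.36 without C2 and to -0.77 without K1. Its paralog Lhx8, a factor of cholinergic neurons and oocytes, had 1 count in C2, 1 in K1 and 0 in the other 4 libraries.

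Lhx1, a factor of kidney, gastrula and spinal interneurons, showed the same split at a lower level. Lhx1 (ENSMUSG00000018698.15, chromosome 11, 84518284 to 84525535, minus strand) measured 23, 0 and 0 counts in C1 to C3 and 26, 7 and 7 counts in K1 to K3. C1 and K1 stood near each other, at 0.863 and 0.900 CPM. The log2 fold change was 0.77 ± 1.49 (SE; edgeR adjusted p = 0.810), and it ranged from 0.18 without C3 to 6.72 without C1, and without K1 it fell below the count filter. In the fit without C1 the remaining controls had no count, so that its value depends on the prior count, and Lhx1 did not pass (edgeR adjusted p = 0.104). Lhx5, the paralog of Lhx1 that is known from the forebrain, had no count in any library.

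Lhx9, the paralog of Lhx2 known from gonad, limb and brain, was too low to be tested but was counted mostly in the knockout-labelled libraries. Lhx9 (ENSMUSG00000019230.14, chromosome 1, 138825186 to 138848577, minus strand) measured 1, 1 and 0 counts in C1 to C3 and 72, 14 and 6 counts in K1 to K3. Each knockout-labelled library held more than any control, and K1 alone held 78.3% of the 92 knockout-labelled counts. The ratio of depth-scaled counts was 45.8 (95% exact interval 12.3 to 384), and without K1 it was 15.7 (3.81 to 138), intervals that cover counting error only. In the fit without a count filter the difference passed (edgeR adjusted p = 0.0426). In that fit it did not pass without K1 (0.255), C1 (0.0762), C2 (0.0719), C3 (0.0977) or K2 (0.0682), and it passed without K3 (0.0216) and without replicate 3 of both groups (0.0477).

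The other paralog pair, Lhx3 and Lhx4, which act in pituitary and motor neurons, had no count in any of the 6 libraries. For Lhx3, Lhx4 and Lhx5 the depth therefore allows up to 0.0975 to 0.154 CPM per library. Members with 0 counts were found beside paralogs that were counted (Lhx5 beside Lhx1), and as a pair (Lhx3 and Lhx4). The number of members with any count was 6, 6 and 4 in C1 to C3 and 7, 6 and 6 in K1 to K3.

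Per kilobase of exon, which allows levels to be compared between genes, the control-labelled order was Lhx2, Lmx1b, Lhx6, Lmx1a, Lhx1, Lhx8 and Lhx9, the last of these on 1 or 2 counts each. Lhx2 had 2.55 to 12.1 CPM per kilobase there and Lmx1b 0.617 to 1.43, without overlap. Lmx1b and Lhx6 (0.00910 to 0.749) overlapped, as did Lhx6, Lmx1a (0.0773 to 0.161) and Lhx1 (0 to 0.212). In the knockout-labelled libraries Lmx1a moved ahead of Lhx6, and the order was Lhx2, Lmx1b, Lmx1a, Lhx6, Lhx1, Lhx9 and Lhx8. Lhx2 (13.2 to 14.7 CPM per kilobase) was above Lmx1b (1.56 to 3.23), Lmx1b and Lmx1a (0.887 to 1.80) overlapped, and Lmx1a was above Lhx6 (0.171 to 0.771) without overlap. Lhx1 (0.0559 to 0.221) and Lhx9 (0.0205 to 0.263) overlapped. Summed over the 10 members, the level was 65.0, 30.0 and 16.0 CPM in C1 to C3 and 84.1, 79.7 and 79.8 CPM in K1 to K3, of which Lhx2 made up 69.2 to 81.9%.

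**Figure D3:**
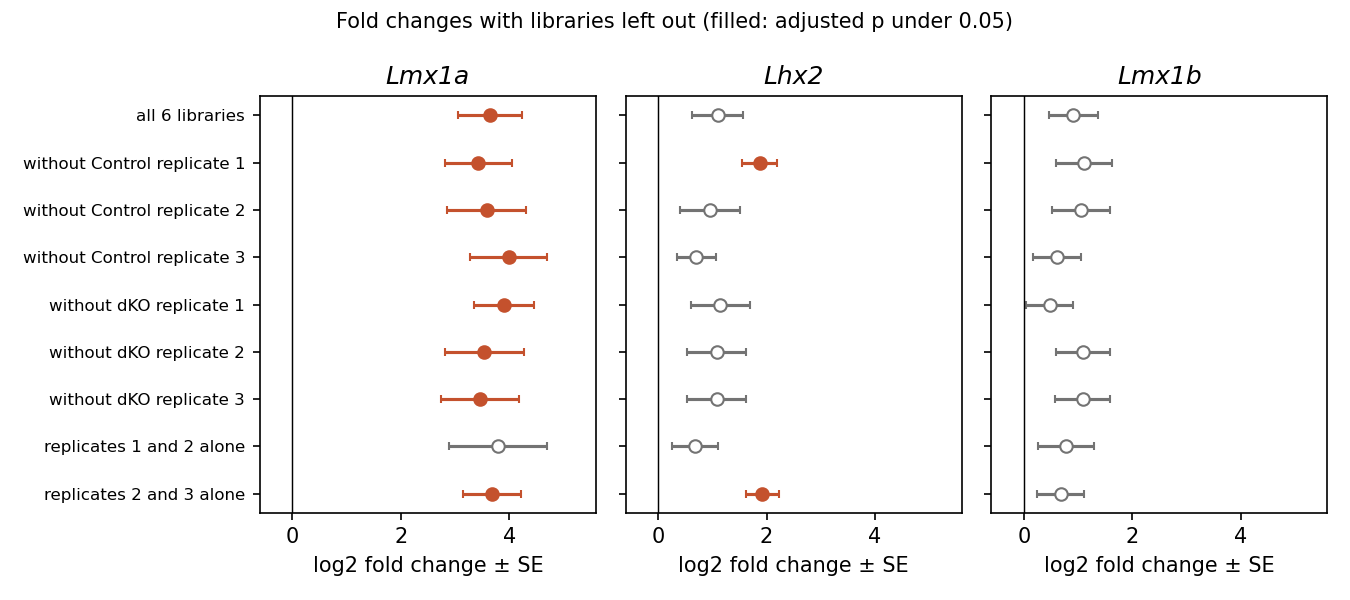
Log2 fold change of Lmx1a, Lhx2 and Lmx1b (knockout-labelled minus control-labelled, bars are the SE) with all 6 libraries and with libraries left out; filled points have an edgeR adjusted p under 0.05. Lmx1a stayed between 3.43 and 3.99 and lost its call with replicates 1 and 2 alone, Lhx2 gained a call without C1 and with replicates 2 and 3 alone, and Lmx1b passed in none of these settings.

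Both islet genes, the LIM homeobox genes closest to the set and known from motor neurons, sensory neurons and pancreas, rose. Isl1 had 0 counts in C1 to C3 and 78, 46 and 132 counts in K1 to K3, at least 85-fold higher when 3 counts are set for the control group (edgeR adjusted p = 0.00465). Isl2 had 0, 0 and 5 counts against 148, 48 and 125, and its fitted log2 fold change was 5.89 ± 1.11 (SE, edgeR adjusted p = 0.0124). Neither gene overlapped between the groups, and both calls were kept when any 1 library was left out and when replicate 1 or replicate 3 of both groups was. Isl1 is also known from Merkel cells, the touch receptor cells of epidermis. Of 8 Merkel cell markers 4 were tested and all 4 rose (Sox2, Isl1, Krt18 and Piezo2), and the list summed to 4.85 to 10.1 CPM in the control-labelled and 54.4 to 104 CPM in the knockout-labelled libraries. Over all tested genes 7.17% were called higher. Isl1 is itself on this list. Sox2 and Isl1 had 0 counts in every control-labelled library. They and Isl2 passed the count filter only through the knockout-labelled libraries and could only be called higher. Atoh1, the factor that defines Merkel cells, had 0 to 0.342 CPM in the control-labelled and 0 to 0.154 CPM in the knockout-labelled libraries, and Rab3c had no count. Of 10 neuron markers 5 were tested and 2 rose in edgeR (Tubb3 and Map2), while limma-voom called 1. Nefl was at 0 in all libraries, and the sums were 6.98 to 15.4 against 24.0 to 34.4 CPM. Map2 alone made up 5.17 to 12.1 against 19.5 to 21.0 CPM of these sums. Tubb3, with 11 control-labelled counts, passed the count filter through the knockout-labelled libraries. Stmn2 (36 against 3 counts) and Syt1 (20 against 10) went the other way, untested, and Snap25 had 45 against 47 counts. Of 7 melanocyte markers 5 were tested and edgeR called 0, with 3 higher at an unadjusted p under 0.05, while DESeq2 called 2 higher and limma-voom 0. They summed to 14.1 to 18.2 against 19.6 to 30.7 CPM. The sort for EpCAM, Sca1 and high α6-integrin was set for epidermal cells, and how far it left out other cells was not tested. Markers of other cell types were counted too. Dermal fibroblast markers summed to 349 to 902 CPM in the control-labelled and 553 to 999 CPM in the knockout-labelled libraries. In the same order, immune cell markers summed to 116 to 230 and 58.1 to 203 CPM. Schwann and glia markers had 111 to 143 and 123 to 153 CPM, endothelium 7.69 to 48.3 and 8.19 to 39.2, and skeletal muscle 8.04 to 11.1 and 6.13 to 10.8. In these lists edgeR called 0 genes. The part of any of these cell types in the LIM homeobox levels was not tested.

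The cofactors that LIM homeodomain proteins bind did not pass, and all but Ldb2 (0 to 1.54 CPM) had at least 9.70 CPM in every library. Of 6 genes of LIM-domain-binding proteins and their partners edgeR called 0, with 1 at an unadjusted p under 0.05, and DESeq2 called 1 and limma-voom 0. Ldb1, the bridging factor, had 143, 130 and 131 CPM in C1 to C3 and 67.8, 116 and 121 CPM in K1 to K3 (log2 fold change -0.41, edgeR adjusted p = 0.326). All knockout-labelled libraries were below the controls, K1 by far the most. Rlim, the ubiquitin ligase that degrades Ldb1, was the most abundant of the list (249 ± 30.1 and 276 ± 29.1 CPM, SD, n = 3). Ssbp4, a single-stranded DNA-binding partner of Ldb1, was the gene called by DESeq2, with a log2 fold change of 0.83 ± 0.25 in edgeR (edgeR adjusted p = 0.0693), which passed without replicate 1 of both groups (0.0310). Of 4 LIM-only genes 3 were tested and edgeR called 0, as did DESeq2 and limma-voom, with 1 lower at an unadjusted p under 0.05 in edgeR. Lmo4, the most abundant, had 112 ± 39.6 and 75.0 ± 13.2 CPM. The cofactors had a median log2 fold change of -0.45 and the LIM-only genes one of -0.68, against 0.00 for all tested genes.

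**Figure D4:**
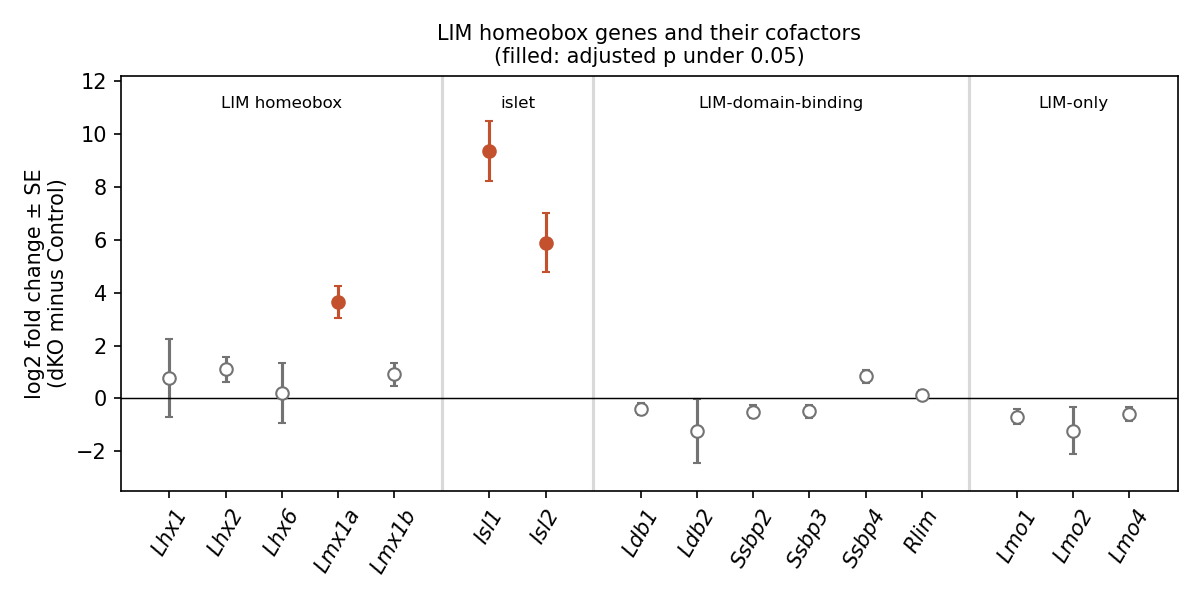
Log2 fold change (knockout-labelled minus control-labelled, bars are the SE from edgeR) of the tested LIM homeobox, islet, LIM-domain-binding and LIM-only genes; filled points have an adjusted p under 0.05. Lmx1a, Isl1 and Isl2 are filled, at 3.65, 9.36 and 5.89 (Isl1 had no control count, so its fitted value is no bound), and all cofactors are open.

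Among 33 genes known as partners, inducers or targets of LIM homeodomain factors, 25 had a count, 13 were tested, 4 rose and 0 fell. Over all tested genes 7.17% were called higher and 2.98% lower. At an unadjusted p under 0.05 edgeR gave 6 of the list higher and 1 lower, and DESeq2 and limma-voom called 0 lower. All 4 that rose passed the count filter through the knockout-labelled libraries, so 4 against 0 is no test of direction. En1, the ventral limb factor that keeps Wnt7a off, had 2 counts in the control-labelled and 376 in the knockout-labelled libraries, a ratio of 187 (95% interval 51.5 to 1552; edgeR adjusted p = 0.00298). Gsc, the organizer factor linked to Lhx1, had 0 against 91 counts, at least 30.2-fold higher (edgeR adjusted p = 0.0143; 0.0655 without K2, 0.0927 with replicates 1 and 2 alone and 0.0525 with a replicate block). Gbx1 had 1 against 52 counts, a ratio of 51.8 (8.89 to 2085; edgeR adjusted p = 0.0317), and it failed to pass in each fit that dropped 1 library (0.0563 to 0.136), without a count filter (0.0528), with replicates 1 and 2 alone (0.180) and with a replicate block (0.0698).

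The known inducer of Lmx1b did not pass, and many neural targets had no count. Wnt7a, the dorsal signal that induces Lmx1b in the limb, had 26.6, 32.8 and 30.2 CPM in C1 to C3 and 6.99, 15.7 and 22.4 CPM in K1 to K3 (log2 fold change -0.99, edgeR adjusted p = 0.149). Its groups did not overlap, with K1 lowest and also highest in Lmx1b. The cholinergic genes Chat and Slc18a3, the serotonergic genes Fev and Tph2, the pituitary hormone gene Cga, and Sst, Foxa2 and Rax had no count in any library. Over the 24 tested genes of the islet, cofactor, LIM-only and partner lists, 6 rose and 0 fell, beside 7.17% higher and 2.98% lower over all tested genes, and the median log2 fold change was 0.29. All 6 passed the count filter through the knockout-labelled libraries, so 6 against 0 is no test of direction.

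Genes whose levels ran most like those of 2 members were sought among tested genes with a mean of at least 5 CPM, by the Pearson correlation of log2(CPM + 0.5) over the 6 libraries. For Lhx2 these were Map3k12, Gucy1a2, Ulk3, Gabre and Tpcn1, with r of 0.982 to 0.996, and 23 of 10787 genes exceeded 0.95. For Lmx1a they were Cpe, Kcnq5, Ero1l, Tmem26 and Pkm, with r of 0.994 to 0.997, and 197 of 10788 exceeded 0.95. None of the 5 genes most like Lhx2 was called, and all 5 most like Lmx1a were called higher. The 6 libraries share the group difference and their depth, so these values describe the libraries only. Between members, r was 0.84 for Lhx1 with Lhx6 and 0.06 for Lhx6 with Lmx1a.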

How the data were processed

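The data are 6 RNA-seq libraries, 3 labelled Control and 3 labelled Ring1a-/- Ring1b-/-. Per the labels' protocols, RNA of sorted cells went through the Nugen Ovation V2 amplification system and was sequenced as single reads. Amplification can add spread to low counts. The authors deposited raw counts per gene symbol. Per the submitters' processing notes the build was mm10 and the tools included DESeq2 1.6.3, HTSeq 0.6.1, Cufflinks 2.2.1 and TopHat2 2.0.13, with no roles stated, and the annotation and strand of counting are not given in the sources used here. Groups come from the sample titles. The members, lists and naming rule (all members, called genes and the most abundant gene of each list, called neighbours) were chosen with earlier results of these data known. Ldb1, Ssbp4, Wnt7a, Nek6, Qsox1, Lhx1os and single marker genes were named after their values were seen. Values of some genes of the partner list are not reported here.

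All genes were fitted together in edgeR 4.0.16 (R 4.3.3) with TMM, filterByExpr (minimum count 10, minimum total 15), prior count 0.125 and the quasi-likelihood F test (two-sided, no covariate). The call threshold was 0.05 after Benjamini-Hochberg adjustment. The procedure was tested on simulated counts, but its recovery of small fold changes is not reported here. A gene that did not pass may therefore still have changed. A fold against a control group with 0 counts is a lower bound, computed with 3 counts in that group. If the group had 1 to 3 counts, the ratio is given with its exact 95% interval. Alternatives used limma 3.58.1 and DESeq2 1.42.0. Gene positions and exon lengths are from GENCODE M21 (GRCm38), and promoter windows from RefSeq (GRCm38.p6). Same-numbered libraries were not treated as pairs, since 1 of the 3 pairs correlated below 0.1. No 2 libraries were copies (smallest chi-square per degree of freedom 28.6).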

Additional observations from a re-analysis of the deposited data

How the results depend on the processing

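Against 1512 genes called in all, 1513 were called with DESeq2 size factors and 1487 with library size alone, 2535 with the DESeq2 test, 2694 when replicate 1 of both groups was left out and 439 when replicate 3 was, and 811 to 1393 with 1 library left out (811 without C3, 821 without K2, 995 without K3). Of the LIM homeobox genes 1 was called in edgeR, and 2 without a count filter (Lmx1a and Lhx9), 0 without replicate 3 of both groups (2 at an unadjusted p under 0.05), 2 without replicate 1 of both (Lmx1a and Lhx2) and 1 to 2 with 1 library left out, the second being Lhx2 without C1 and Lhx9 without K3. Of the partner lists 6 genes were called, 2 when 50 counts in 3 libraries were required, which leaves 14 of 24 genes, 3 with replicates 1 and 2 alone, and 4 to 5 with 1 library left out. Of the neighbours 1 was called, 3 with the DESeq2 test, 0 without replicate 3 of both groups (2 at an unadjusted p under 0.05), 2 without replicate 1 of both and 0 to 2 with 1 library left out (0 without C3 or K2, each with 3 at an unadjusted p under 0.05, and 2 without K3). Lhx6 ranged from -0.77 (without K1) to 1.53 (without C1) and was -0.36 without C2, Lhx1 from 0.18 (without C3) to 6.72 (without C1) and was 2.30 with a replicate block, and Rlim turned to -0.022 with replicates 2 and 3 alone. The cause of these shifts was not tested.

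The replicate numbers were not taken as pairs (r of the deviations 0.19, 0.26 and 0.08 for replicates 1, 2 and 3), although every library correlated best with its own number, a hint from the data and not the design. With a replicate block 1451 genes were called in all, 1 LIM homeobox gene, 4 partner genes (Gbx1 and Gsc were lost) and 1 neighbour. Depth limits what can be said of Lhx3, Lhx4, Lhx5, Lhx8 and Lhx9, which lie at or near 0 counts in the control-labelled libraries.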
